A study of Mus musculus with 12 samples.

Results

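The Cyp2c subfamily was followed in liver tumours and normal livers of the mouse. Of the 10 members considered (Cyp2c29, Cyp2c37, Cyp2c38, Cyp2c39, Cyp2c40, Cyp2c44, Cyp2c50, Cyp2c54, Cyp2c55 and Cyp2c70), 9 were measured, each by 1 probe set that names that gene alone, among 18193 genes named in this way on the array. Cyp2c44 was matched by gene identifier to the current symbol Cyp2c23. Cyp2c40 was matched to no probe set that names 1 gene in the annotation used here and was not analysed. Spontaneous hepatocellular carcinoma (HCC) was represented by 6 samples and normal liver, the control, by another 6, all from untreated mice of the B6C3F1 hybrid, bred from C57BL/6 and C3H parents and used in long bioassays. The mice were 2 years old, and the labels give no sex, no batch and no transgene or deletion. Each sample was hybridised to 1 single-colour Affymetrix array, and precision is limited by how many arrays there are. The labels do not say that each tumour came from a different mouse, so p-values measure the spread between these samples. Levels are quantile-normalized log2(intensity + 16), on which 4 is the floor, and differences are on the same scale.

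The members of this subfamily are haem-containing monooxygenases of the endoplasmic reticulum that take electrons from cytochrome P450 reductase. They oxidise drugs and steroids, and several of them convert arachidonic acid into epoxyeicosatrienoic acids, short-lived lipid mediators that soluble epoxide hydrolase (Ephx2) breaks down. In liver many are induced through the nuclear receptor CAR (Nr1i3), depend on hepatocyte transcription factors, and differ between the sexes under the control of growth hormone pulses. Cyp2c70 stands somewhat apart as the enzyme that makes the muricholic acids, bile acids typical of mice and rats.

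The genes lie close together, and the bases before their start sites are shown for the 2 pairs of members whose windows were most alike, with those of Cyp2c70, whose window was unlike the others. RefSeq sequences on GRCm38.p6 were held for 8 of the 10 members, and 250 bases before each start were taken. The entries for Cyp2c44 and Cyp2c54 were not used here. The windows are Cyp2c37 at chr19:39992174-39992423 (plus strand) and Cyp2c50 at chr19:40089429-40089678 (plus strand), in which capitals mark bases that the alignment of these 2 did not pair with the same base, and Cyp2c38 at chr19:39463076-39463325 (minus strand), the start of Cyp2c39 at chr19:39510572-39510821 (plus strand) and Cyp2c70 at chr19:40187287-40187536 (minus strand), in which capitals mark the FOXA, HNF4A and TATA matches given below. All are written 5′ to 3′ in the direction of transcription.
Cyp2c37: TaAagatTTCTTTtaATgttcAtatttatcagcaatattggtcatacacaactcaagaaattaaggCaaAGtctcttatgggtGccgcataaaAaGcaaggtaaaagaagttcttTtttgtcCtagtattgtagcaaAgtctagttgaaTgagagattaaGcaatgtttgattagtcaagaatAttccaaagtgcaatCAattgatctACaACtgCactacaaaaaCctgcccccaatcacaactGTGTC
Cyp2c50: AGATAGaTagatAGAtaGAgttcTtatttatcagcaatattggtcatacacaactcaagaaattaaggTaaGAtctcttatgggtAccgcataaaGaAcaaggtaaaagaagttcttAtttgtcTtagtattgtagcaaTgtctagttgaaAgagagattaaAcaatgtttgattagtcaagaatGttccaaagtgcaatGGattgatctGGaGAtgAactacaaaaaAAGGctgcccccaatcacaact
Cyp2c38: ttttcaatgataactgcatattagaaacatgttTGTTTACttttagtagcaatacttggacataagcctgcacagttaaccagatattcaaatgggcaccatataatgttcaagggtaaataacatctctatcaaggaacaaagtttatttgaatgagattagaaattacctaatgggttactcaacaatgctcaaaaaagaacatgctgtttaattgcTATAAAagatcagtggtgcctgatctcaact
Cyp2c39: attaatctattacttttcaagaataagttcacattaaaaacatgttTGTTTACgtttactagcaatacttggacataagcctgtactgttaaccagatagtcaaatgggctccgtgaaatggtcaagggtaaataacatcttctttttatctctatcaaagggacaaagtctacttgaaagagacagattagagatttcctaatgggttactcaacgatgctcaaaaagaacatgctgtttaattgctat
Cyp2c70: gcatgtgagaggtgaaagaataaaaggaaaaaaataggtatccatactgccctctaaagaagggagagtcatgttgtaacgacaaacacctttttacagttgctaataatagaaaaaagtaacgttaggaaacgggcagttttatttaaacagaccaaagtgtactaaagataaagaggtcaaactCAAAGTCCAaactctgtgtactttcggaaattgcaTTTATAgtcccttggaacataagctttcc

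The window of Cyp2c37 was 88.4% identical to that of Cyp2c50 over 242 aligned bases, with 36 capitals in each. Cyp2c38 and this start of Cyp2c39 were 89.6% identical over 221 bases, and Cyp2c29 was 82.0% identical to Cyp2c38 over 228. Alignments of the Cyp2c70 window with another member spanned at most 80 bases. Both strands were searched for short motifs. TGTTTAC, the core recognised by FOXA factors, was found in 3 of the 9 windows (both starts of Cyp2c39, and Cyp2c38), against 3.17% of 32851 windows of the same length. CAAAGTCCA, a motif recognised by HNF4A, was found in those of Cyp2c70 and Cyp2c40, against 0.384% of all windows. TATAAA was found in 4 of the 9 windows, including those of Cyp2c38 and, on the opposite strand, Cyp2c70, against 12.4% of all. CTTTGAT, recognised by TCF and LEF factors, was found in 3 (Cyp2c29 and both starts of Cyp2c39), against 3.21%, and GTTAAT in that of Cyp2c40, against 6.43%. TTGCGCAA (C/EBP, 0.164% of all windows), TTCNNNGAA (STAT5, 7.02%) and the nuclear receptor repeats DR1 (0.0335%) and DR4 (in none of all windows) were found in no member's window. No motif overlapped another in a member's window. These matches describe letters and are not shown binding sites.

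The first comparison asked which members differed between HCC and normal liver. Cyp2c54, Cyp2c50, Cyp2c37, Cyp2c44 and Cyp2c29 fell in HCC, with log2 differences from -4.83 to -1.96, and none rose. Thus 5 of the 9 measured members were called lower (limma, Benjamini-Hochberg adjusted p under 0.05 over 45037 probe sets), where 3.95% of all probe sets were called lower and 4.38% higher. The count was 3 without normal 5, HCC 3 or HCC 6. No member was higher at an unadjusted p under 0.05 (0 of 9), and the exact Wilcoxon test also called 0 higher. The median difference over the members was -1.98, against -0.02 over all probe sets. All 9 were bright in normal liver, brighter than at least 86.4% of probe sets, and no filter on low values was used. In 4 of the 9 every HCC lay below every normal liver, against 3.08% of all probe sets, and in 0 did every HCC lie above, against 3.41%. In bulk tissue a lower level cannot be told apart from fewer hepatocytes. Of 9 hepatocyte markers listed, 7 were measured, all at high levels (Alb, Ttr, Apoa1, Apoa2, Apob, Fgb and Ahsg), and 0 passed the test. Their summed log2 level was 18.46 to 18.53 in HCC and 18.40 to 18.46 in normal liver. These markers lie near the top of the scale, with Apoa1 at 16.06 in every normal liver, which leaves little room to show a change. Cyp2c29, Cyp2c50 and Cyp2c70 were also near the top in normal liver, with means of 15.42, 15.23 and 15.1. The effect of this on their spread and differences was not tested. The share of hepatocytes was not tested.

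**Figure D1:**
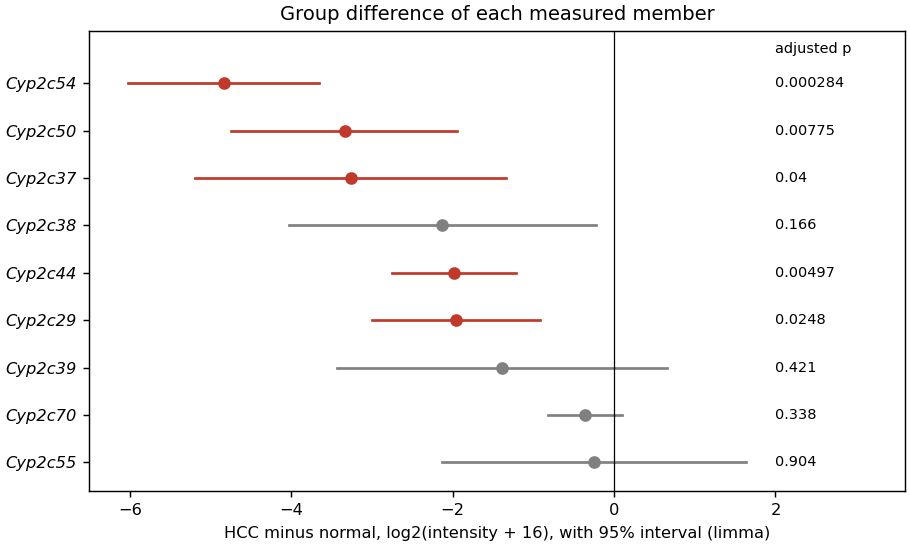
Difference in mean log2(intensity + 16), HCC minus normal liver, for the 9 measured members, with 6 samples in each group. Points are estimates, bars are unadjusted 95% intervals from limma, red marks an adjusted p under 0.05, and the 5 red members lie between -4.83 for Cyp2c54 and -1.96 for Cyp2c29.

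Cyp2c54, an epoxygenase of arachidonic and linoleic acid, had the largest fall. Its log2 level was 10.96, 7.55, 9.06, 10.89, 8.07 and 8.90 in HCC 1 to HCC 6 (median 8.98), against a lowest of 13.20, a median of 14.23 and a highest of 14.58 in normal liver. The 2 groups did not overlap, and the brightest tumour lay more than 2 log2 units under the dimmest normal liver. The difference was -4.83 ± 0.55 (SE, limma adjusted p = 0.000284), a level 28.5-fold lower. HCC 1 and HCC 4 were higher than the other 4 tumours, yet their differences from the mean of normal liver were -3.11 and -3.18.

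Cyp2c50, its neighbour and another epoxygenase, was at 13.88 in HCC 1 and 14.45 in HCC 4 and between 10.38 and 11.14 in HCC 2, HCC 3, HCC 5 and HCC 6. Normal livers had a lowest of 15.15, a median of 15.24 and a highest of 15.28. All 6 tumours were below all normal livers, but they formed 2 sets, with differences from the normal mean of -1.35 and -0.78 in HCC 1 and HCC 4 and of -4.85 to -4.10 in the others. The group difference was -3.34 ± 0.65 (SE, limma adjusted p = 0.00775).

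Cyp2c44, a liver and kidney epoxygenase, was at 11.54, 10.95, 10.60, 11.33, 12.41 and 9.69 in HCC 1 to HCC 6, and between 12.85 and 13.44 in normal liver (median 12.99). Every tumour was again below every normal liver, but here HCC 5 was nearest to them and HCC 6 farthest, and HCC 1 and HCC 4 lay among the rest. The difference was -1.98 ± 0.36 (SE, limma adjusted p = 0.00497).

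Cyp2c29, an epoxygenase strongly induced by phenobarbital through CAR, was at 15.11 in HCC 1 and 15.00 in HCC 4, and at 12.06, 12.95, 12.37 and 13.31 in HCC 2, HCC 3, HCC 5 and HCC 6. Normal livers spanned 15.33 to 15.49 (median 15.43), so HCC 1 and HCC 4 fell short of them by little and the other tumours by 2 or more log2 units. The difference was -1.96 ± 0.48 (SE, limma adjusted p = 0.0248), and the call was lost without normal 5 (adjusted p = 0.0503), HCC 3 (0.0523) or HCC 6 (0.052).

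Cyp2c37, also an epoxygenase, was at 14.12 in HCC 1 and 14.03 in HCC 4, inside the range of normal liver (13.91 to 15.01, median 14.13). It was at 8.76, 9.57, 9.15 and 10.87 in HCC 2, HCC 3, HCC 5 and HCC 6, far below that range. The groups overlapped, and the difference of -3.27 ± 0.89 (SE) passed narrowly (limma adjusted p = 0.04). Its call was lost without any 1 of 10 arrays, that is all but HCC 1 and HCC 4 (adjusted p up to 0.0814), and with the replicate number as a block (adjusted p = 0.0556), a pseudocount of 1 (0.057), a trended and robust variance model (0.0653) or the exact Wilcoxon test (0.196).

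Cyp2c38, Cyp2c39 and Cyp2c55 did not pass the test. Tumours lay on both sides of normal liver in Cyp2c39 and Cyp2c55, and in Cyp2c38 only by a small margin. Cyp2c38, an arachidonic acid epoxygenase, was at 13.59 in HCC 1 and 13.28 in HCC 4 and between 8.22 and 10.20 in the other tumours, against 11.57 to 13.54 in normal liver (median 12.65). One tumour was just above the normal range, HCC 1, at 13.59 against 13.54, and 4 were below it. In the deposited intensities HCC 1 was not above the range, at 12060 against 12210 in normal 3. The difference was -2.13 (95% interval -4.03 to -0.22, limma adjusted p = 0.166).

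Cyp2c39, which can hydroxylate retinoic acid, had a level of 13.18 in HCC 1 and 13.03 in HCC 4, above the highest normal liver at 12.64. It was at 8.03, 8.60, 8.02 and 9.12 in HCC 2, HCC 3, HCC 5 and HCC 6, below the lowest normal liver at 10.22. No tumour was inside the normal range, and the difference was -1.39 (95% interval -3.43 to 0.66, limma adjusted p = 0.421).

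Cyp2c55, known from colon and as a target of CAR in liver, also lay on both sides. It was at 12.82 in HCC 1 and 12.34 in HCC 4, more than 1 log2 unit above the highest normal liver at 11.07. It was at 7.94, 8.002 and 8.25 in HCC 2, HCC 3 and HCC 5, below the lowest normal liver at 8.64, and HCC 6 at 9.37 was inside the range. The group difference was -0.25 (95% interval -2.13 to 1.63, limma adjusted p = 0.904), and its sign turned positive without HCC 2 (0.12), HCC 3 (0.10) or HCC 5 (0.05). Of the epithelial markers of the gut, where Cyp2c55 is also made, Vil1 was higher in HCC by 3.44 (limma adjusted p = 0.01). In normal liver Vil1 was near the floor, at 4.17 to 5.47. Cdx2 and Fabp2 did not pass, and Fabp2 already had a mean of 12.99 in normal liver. The part of these genes in the level of Cyp2c55 was not tested.

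Cyp2c70, the muricholic acid enzyme, varied least among the tumours. It was at 14.97, 14.51, 15.35, 14.94, 14.66 and 13.97 in HCC 1 to HCC 6 and between 14.89 and 15.30 in normal liver (median 15.06). HCC 6 was the lowest and HCC 3 lay just above the normal range. The difference was -0.36 (95% interval -0.82 to 0.10, limma adjusted p = 0.338).

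**Figure D2:**
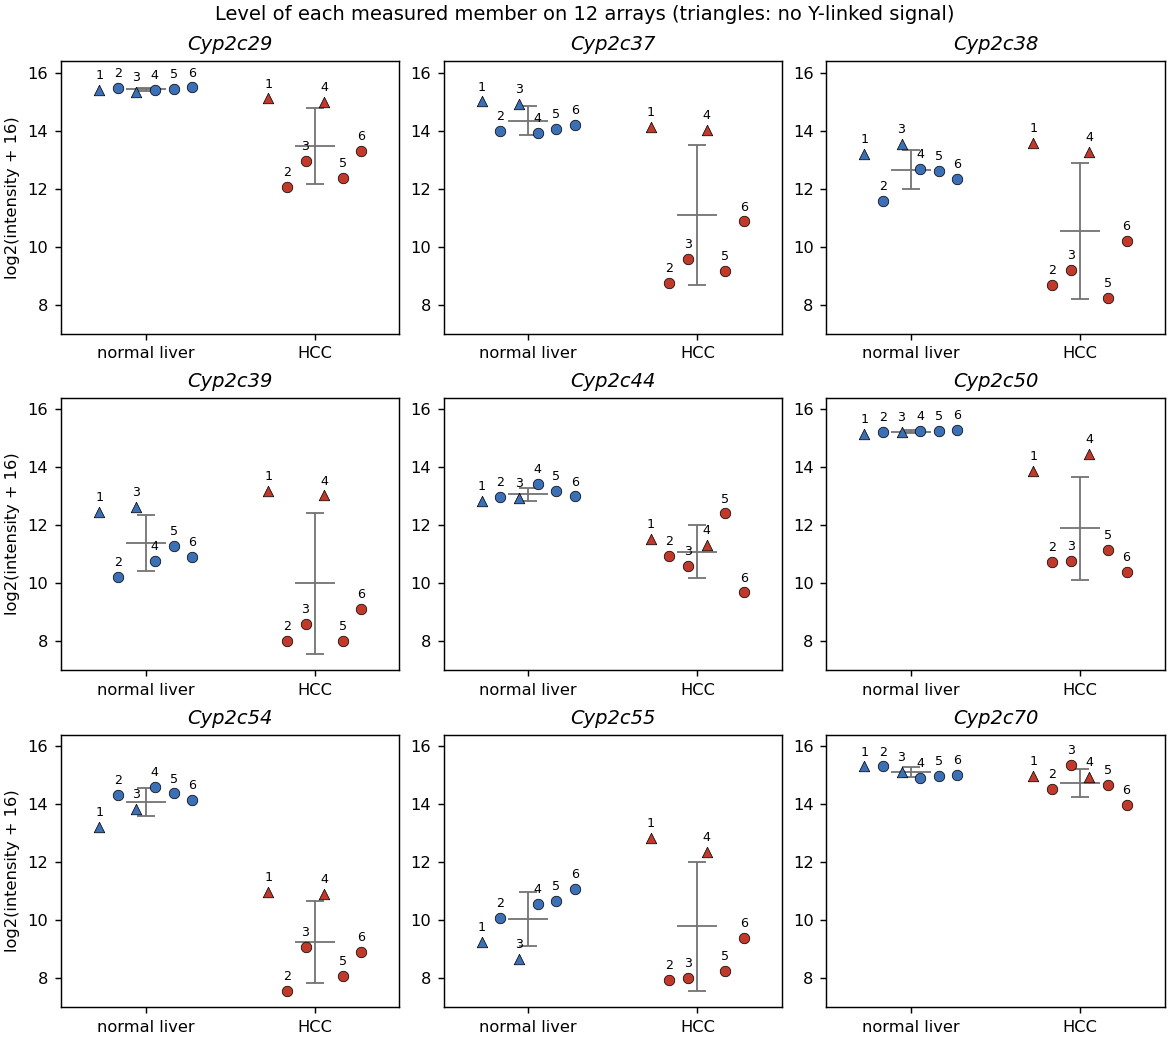
Level of each of the 9 measured members, as log2(intensity + 16) after quantile normalization, in 6 normal livers (blue) and 6 HCC (red), numbered as in the labels; grey bars are the mean and SD, and triangles are samples without Y-linked signal. In 7 panels HCC 1 and HCC 4 stand above the other tumours, while Cyp2c44 and Cyp2c70 show no such split.

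Tumour by tumour, the members separated HCC 1 and HCC 4 from the other 4. Of the 54 member values in HCC, 42 were below the range of normal liver, 6 within it and 6 above it. In HCC 2 and HCC 5 all 9 members were below the normal range, with a median difference from the normal mean of -3.37 and -3.36. In HCC 3 and HCC 6 it was 8 of 9, with medians of -2.78 and -2.45. In HCC 1 and HCC 4 only 4 of 9 were below, the same Cyp2c29, Cyp2c44, Cyp2c50 and Cyp2c54, with medians of -0.23 and -0.32. The median over all probe sets was between -0.063 and 0.0042 in each tumour. The share of all probe sets below the normal range in each tumour was not counted. These counts of members therefore have no such share beside them. The spread among tumours was wider than among normal livers for every member, with SDs from 0.47 (Cyp2c70) to 2.44 (Cyp2c39) in HCC and from 0.05 (Cyp2c50) to 0.97 (Cyp2c39) in normal liver.

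Several members are known to be most active in the hepatocytes around the central vein, where Wnt signalling sustains glutamine synthetase (Glul), so the levels of such markers are given beside them. Glul was at 15.17 in HCC 1, 15.10 in HCC 4 and 14.62 in HCC 6, above the normal range of 13.29 to 14.33, and between 11.40 and 12.03 in the other 3 tumours. Of the 9 central vein markers listed, 9 were above the normal range in HCC 1 and 8 in HCC 4, with Cyp2e1 within it. In HCC 1 Cyp2e1 was above by less than the digits shown, at 15.71 against a highest normal liver of 15.71. All 9 were below the range in HCC 2, HCC 3 and HCC 5. HCC 6 was mixed, with 5 above (Glul, Axin2, Lgr5, Oat and Slc1a2), 3 within and Cyp2e1 below. For these markers too, the share of all probe sets outside the range in each tumour was not counted. The 2 tumours with the most markers above the range, HCC 1 and HCC 4, were also the only ones with Cyp2c39 and Cyp2c55 above theirs, while their Cyp2c37 was within it. In HCC 6 the differences from the normal mean were -3.48 for Cyp2c37, -2.45 for Cyp2c38 and -2.27 for Cyp2c39, all below the normal range, and -0.67 for Cyp2c55, within it. HCC 6 also had the highest summed level of stellate cell and fibroblast markers, at 16.03 against 10.17 to 12.69 in the other tumours and 12.33 to 13.11 in normal liver. The part of these markers in its Cyp2c levels was not tested.

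**Figure D3:**
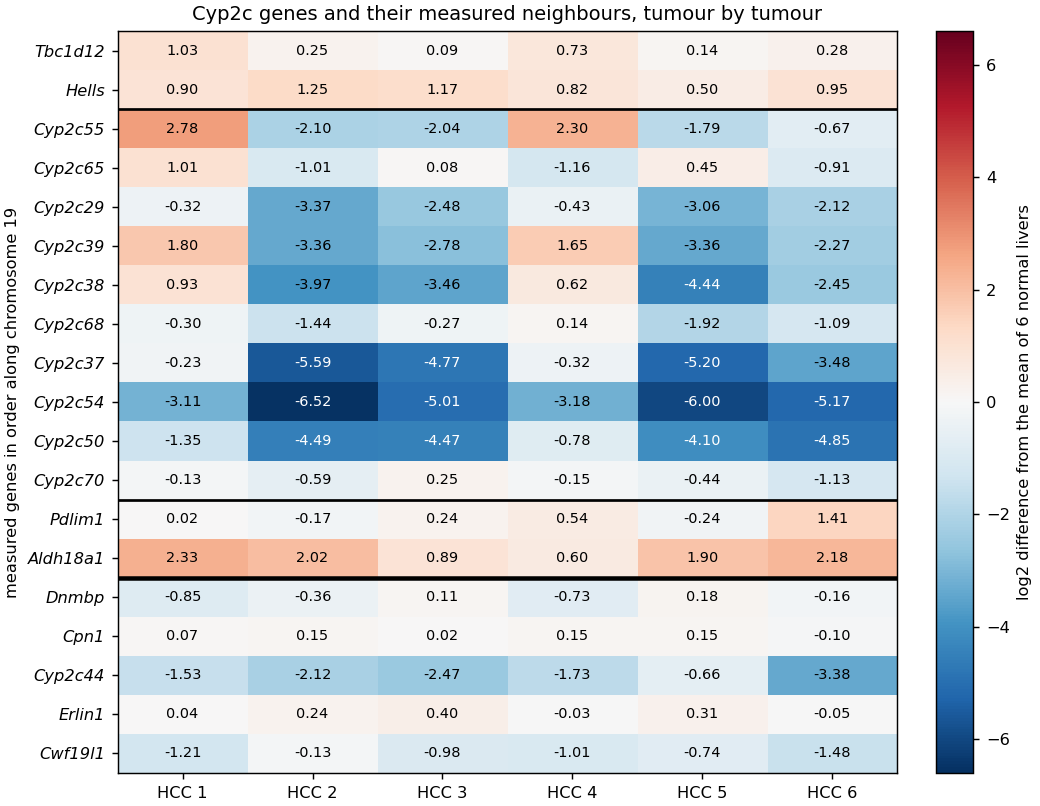
Log2 difference of each HCC from the mean of 6 normal livers for the measured genes of the Cyp2c cluster, for Cyp2c44, and for 2 measured neighbours on each side, in their order along chromosome 19 (thin lines bound the cluster, the thick line marks a gap in the order). The run Cyp2c37, Cyp2c54, Cyp2c50 lies between -6.52 and -3.48 in HCC 2, HCC 3, HCC 5 and HCC 6, and the next gene, Cyp2c70, between -1.13 and 0.25.

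The order of the genes along chromosome 19 was read from the RefSeq annotation. The cluster holds 14 protein-coding Cyp2c genes with no other protein-coding gene between them, and Cyp2c44 lies apart, with 52 protein-coding genes between. Cyp2c37, Cyp2c54 and Cyp2c50 are consecutive and had the 3 largest falls. The next gene, Cyp2c70, was the last of the cluster and did not pass. The genes outside showed no joint fall: Hells and Tbc1d12 before the cluster were at 0.93 (limma adjusted p = 0.0501) and 0.42 (0.194), and after it Pdlim1 was at 0.30 (0.527) while Aldh18a1 rose by 1.65 (0.00599). Beside Cyp2c44, Cpn1 was at 0.07 (0.784), Dnmbp at -0.30 (0.445) and Erlin1 at 0.15 (0.577), while Cwf19l1 fell by 0.93 (0.0169). Within the cluster the neighbours differed in HCC 1 and HCC 4: the difference was -3.11 and -3.18 for Cyp2c54, -0.23 and -0.32 for Cyp2c37 and -1.35 and -0.78 for Cyp2c50. Cross-hybridisation between near-identical genes can carry signal from one member to the probe set of another. Probe sequences were not used here, its part was not tested, and each value is that of its probe set.

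Among the 36 pairs of members, Cyp2c38 and Cyp2c39 were closest in their tumour-by-tumour differences, with a mean absolute difference of 0.74 over the 6 tumours. Next came Cyp2c29 with Cyp2c39 (0.83) and Cyp2c37 with Cyp2c50 (0.91). Besides the measured members, 11382 genes above the median probe set, Cyp2c68 included, were ranked by the same measure. Closest to Cyp2c50 was Cyp7a1, the rate-limiting enzyme of bile acid synthesis, at 0.38, with differences of -1.08, -5.15, -4.20, -0.90, -4.66 and -4.47 in HCC 1 to HCC 6; it was also closest to Cyp2c37, at 0.66. For Cyp2c38 it was Cyp4a14, a fatty acid hydroxylase, at 0.43, and for Cyp2c39 the acyl-CoA thioesterase Acot1 at 0.70. For Cyp2c44 the nearest were Keg1 at 0.25, Nat8f1 at 0.29 and the glucuronosyltransferase Ugt2a3 at 0.31. For Cyp2c55 they were Nxpe2 at 0.43, the vasopressin receptor Avpr1a at 0.46 and the heat shock gene Hspa1b at 0.52. For Cyp2c29 the nearest was Nsl1 at 0.34 and for Cyp2c54 none came within 1 log2 unit. These are descriptions of 6 tumours.

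Because members of the subfamily differ between the sexes in mouse liver and the labels give no sex, the members are shown beside Uty, Kdm5d and Eif2s3y, which lie on the Y chromosome. The mean of these 3 was between 4.17 and 4.85 in normal 1, normal 3, HCC 1 and HCC 4, where Xist was 11.79 or higher. It was between 8.96 and 9.78 in the other 8 samples, where Xist was 7.56 or lower. In normal liver without Y-linked signal, Cyp2c39 was at 12.46 and 12.64, against 10.22 to 11.28 in the 4 with it. Cyp2c38 was at 13.20 and 13.54 against 11.57 to 12.68, and Cyp2c37 at 15.01 and 14.93 against 13.91 to 14.20. The opposite order held for Cyp2c54, at 13.20 and 13.82 against 14.14 to 14.58, and for Cyp2c55, at 9.25 and 8.64 against 10.07 to 11.07. In 7 of the 9 members the 2 and the 4 normal livers did not overlap, against 17.6% of all probe sets in either direction. They were these 5 with Cyp2c44 and Cyp2c50. The last 2 were barely apart, at 12.95 against 12.97 for Cyp2c44 and 15.22 against 15.23 for Cyp2c50. In the deposited intensities Cyp2c44 overlapped, at 8397 in normal 3 without Y-linked signal and 7976 in normal 2 with it. In HCC 7 of 9 did not overlap, all but Cyp2c44 and Cyp2c70, against 17.3%. In HCC the difference between samples with and without Y-linked signal was negative for all 9 members, Cyp2c54 (-2.53) and Cyp2c55 (-4.19) included, although these were at 0.84 and 1.64 in normal liver.

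The effect of HCC differed with the Y-linked level for 6 of the 9 members (limma interaction of group and Y-linked level, adjusted p under 0.05 over 45037 probe sets, where 0.0511% of all passed). Cyp2c55 had the smallest adjusted p, 0.00945. HCC minus normal was -2.20 over the 4 and 4 samples with Y-linked signal and 3.63 over the 2 and 2 without it. For Cyp2c50 the same 2 differences were -4.50 and -1.02 (adjusted p = 0.0333), for Cyp2c37 -4.45 and -0.90 (0.0391), for Cyp2c54 -5.96 and -2.58 (0.0408), for Cyp2c29 -2.78 and -0.32 (0.0408) and for Cyp2c39 -2.36 and 0.56 (0.0447). For Cyp2c38 they were -3.23 and 0.07 (0.0832), for Cyp2c44 -2.24 and -1.46 (0.932) and for Cyp2c70 -0.42 and -0.25 (0.967). The count of 6 was 7 without HCC 6 and between 0 and 3 without any other 1 array. It was 0 without normal 1 or normal 3, each of which leaves 1 normal liver without Y-linked signal, and 1 with a pseudocount of 1. HCC 1 and HCC 4, the tumours without Y-linked signal, are also those with the highest Glul, so the Y-linked level and that difference between tumours cannot be told apart here.

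**Figure D4:**
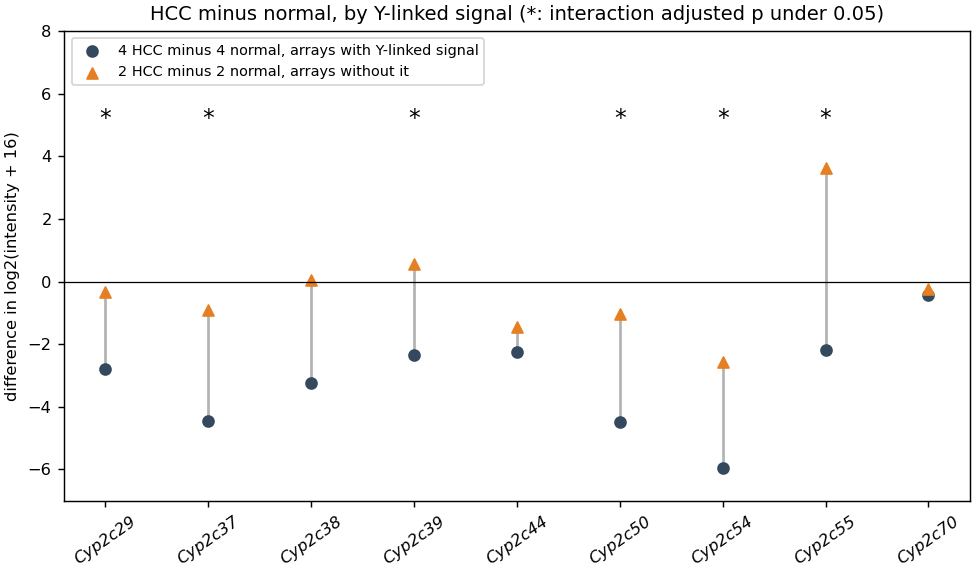
Difference in mean log2(intensity + 16), HCC minus normal liver, over the 4 and 4 samples with Y-linked signal (circles) and the 2 and 2 without it (triangles), for the 9 measured members. Stars mark the 6 members whose interaction passed; the largest gap is that of Cyp2c55, from -2.20 to 3.63.

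A list of 56 genes held partners and regulators of the subfamily, other enzymes of arachidonic acid, central vein markers and other Cyp2c genes. Of these 49 were measured, and 7 fell and 1 rose (5.49% of all named genes fell and 5.27% rose, by their brightest probe set). The list's median difference was -0.27. Of 8 receptors 1 fell, CAR itself (Nr1i3), by 1.80 ± 0.35 (SE, limma adjusted p = 0.00785), from 10.81 to 11.60 in normal liver to 8.001 to 10.15 in HCC, with no overlap. Of 8 genes of the growth hormone axis 1 fell, the receptor Ghr, by 1.64 ± 0.28 (adjusted p = 0.00379). Among 6 hepatocyte factors Cebpa fell by 0.71 (adjusted p = 0.0232, lost without normal 4 at 0.0523 and with the replicate block at 0.084), Foxa3 rose by 1.05 (0.0209, lost without normal 5 at 0.0506) and 4 did not pass, among them Hnf4a at 0.09.

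Of 13 other enzymes of arachidonic acid 4 fell and 9 did not pass. The epoxygenase Cyp2j5 fell by 3.22 (limma adjusted p = 0.0227, lost without HCC 4 at 0.0511 or HCC 6 at 0.0534), the fatty acid hydroxylase Cyp4f14 fell by 2.81 (0.00693) and Ephx2, which hydrolyses the epoxides, fell by 1.71 (0.000947). Of 4 listed partners that supply electrons and haem, 3 were measured and 0 passed, with Cyb5a at -0.26 (limma adjusted p = 0.291). The gene of cytochrome P450 reductase itself (Por) was the one not measured. None of 9 central vein markers passed, with Glul at -0.65 (0.612; -0.26 without HCC 3, -0.33 without HCC 2, -0.39 without HCC 5, -1.02 without HCC 1 and -1.004 without HCC 4), Axin2 at -0.09 (0.972), whose sign turned with the deposited scaling (0.03), and the ethanol-inducible Cyp2e1 at -0.90 (0.178; -0.57 without HCC 3). Of the 2 other Cyp2c genes measured, Cyp2c68 was at -0.81 (0.155) and Cyp2c65 at -0.26 (0.79), the latter under a log2 level of 5 on 6 arrays.

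Markers of other cell types were summed on the linear scale. In HCC the summed level of 4 cholangiocyte markers was 7.99 to 9.95 (8.49 to 9.25 in normal liver), with 0 past the test. That of 5 lymphocyte markers was 8.60 to 9.38 (8.001 to 9.05), with 0 past the test. Of 5 endothelial markers 2 fell, Stab2 and Clec4g. Pecam1 (1.38, limma adjusted p = 0.0997), Lyve1 (0.225, 0.768) and Kdr (-0.379, 0.456) did not pass. The sum of these 5 was 10.28 to 12.10 in HCC, lowest in HCC 1 and HCC 4, and 11.88 to 12.67 in normal liver. Of 5 macrophage markers Clec4f fell. Cd68 (1.34, limma adjusted p = 0.135), Adgre1 (0.03, 0.965), Marco (-0.523, 0.425) and Cd5l (-0.84, 0.313) did not pass. The sum of these 5 was 10.95 to 12.75 in HCC and 11.46 to 12.72 in normal liver. The part of these cells in the Cyp2c levels was not tested.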

How the data were processed

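The deposited intensity values are linear signals per probe set, scaled so that each array's 2% trimmed mean is 500 (medians 92.36 to 114.3). Per the labels' protocols, TRIzol and column extracts were labelled with biotin by one-cycle synthesis; the sources used here do not give the summary method. log2(intensity + 16) of 45101 probe sets was quantile normalized. The 64 array controls were left out, and 45037 probe sets were fitted with limma 3.58.1 in R 4.3.3 (two-sided tests, Benjamini-Hochberg). Of these, 34945 named 1 gene, 932 several and 9160 none; a listed gene was taken by its brightest probe set. The interaction used the mean of 3 Y-linked genes as a continuous term. Promoter windows were aligned with Biopython 1.88. The test was checked on data simulated with the spread of normal livers in both groups. The wider spread among HCC was not simulated. The members and lists were chosen with earlier results of these data known. Every member was named; from each list up to 3 genes past the test with the largest difference were named, or the one with the smallest p, with Glul and Axin2; neighbouring genes on the chromosome, cell type markers, other Cyp2c genes and Hnf4a were named beyond this rule after seeing values. For each member the 3 genes nearest in the tumour-by-tumour differences were ranked. Alternatives were the pseudocount, scaling, filters, variance models, array weights, a replicate block, leaving out arrays, an exact Wilcoxon test, the threshold and a Y-linked covariate; fits restricted by Y-linked signal were chosen after seeing the data. The replicate numbers did not pair the samples.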

Additional observations from a re-analysis of the deposited data

Results flagged for a closer look

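For 6 members the difference between HCC and normal liver itself differed with the Y-linked level, by a test of the interaction (limma, adjusted over all probe sets): Cyp2c55 (adjusted p = 0.00945), Cyp2c50 (0.0333), Cyp2c37 (0.0391), Cyp2c29 (0.0408), Cyp2c54 (0.0408) and Cyp2c39 (0.0447). The samples without Y-linked signal were 2 HCC and 2 normal livers, and the same 2 HCC had the highest Glul. Each of the 9 members was also checked for a sample far from the others within HCC and within normal liver, 18 checks in all, and 0 met the limit, although chance alone flags about 1 in 20 such groups.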

How the results depend on the processing

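The falls of Cyp2c54, Cyp2c50 and Cyp2c44 kept their call under every alternative run other than the samples without Y-linked signal alone (2 against 2), with leave-one-out differences of -5.178 to -4.495, -3.851 to -3.038 and -2.245 to -1.700. The number of members lower in HCC, 5, was 3 at an adjusted p under 0.01, 8 in the samples with Y-linked signal and 0 in those without, which hold fewer samples; leaving out single arrays gave 3 to 5, and the replicate block gave 4, with Cyp2c37 lost. Deviations of samples sharing a replicate number correlated at -0.0177 to 0.0636 and were not treated as paired. The interaction count of 6 was 1 with a pseudocount of 1, 3 with median centring, 1 at a threshold of 0.01, and 0 to 7 without single arrays; the cause was not tested.

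Of the measured genes on the list of 56, 7 fell. The count was 11 when only brighter probe sets were fitted (fewer features tested) and 4 at 0.01. It was 3 and 0 in the samples with and without Y-linked signal. The 1 that rose became 2 with the deposited scaling, when fitted on brighter probe sets or with 1 probe set per gene, and 0 with the exact Wilcoxon test, at 0.01, and in the samples with or without Y-linked signal; single arrays gave 0 to 2. Signs turned, without passing, in the samples without Y-linked signal for Cyp2c38 (0.0664), Cyp2c39 (0.56), Cyp2c55 (3.635), Glul (0.87), Axin2 (2.65) and Cyp2e1 (0.13). They also turned for Axin2 with a pseudocount of 64 (0.16) and the deposited scaling (0.0266), and without single arrays for Axin2 (range -0.81 to 0.53) and Cyp2c55 (-0.86 to 0.12); the cause was not tested. Of 234 member differences under alternatives, 200 kept direction and call. The number of arrays and their signal over the floor limit these values.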
